A study of Mus musculus with 6 samples.

Results

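The adult ventricle keeps expressing a core set of developmental transcription factors, and 10 of their genes were examined here: the zinc finger factors Gata4 and Gata6, the homeodomain factor Nkx2-5, the MADS-box factors Mef2a, Mef2c and Mef2d, the basic helix-loop-helix factors Hand1 and Hand2, the homeodomain-only protein gene Hopx, and Tead1, the DNA-binding partner of the Hippo pathway coactivator Yap. The members were taken as every array probe set that the platform annotation ties to a single gene, that gene being one of the 10. This gave 29 probe sets of 45037 tested, and 10 genes of 18194. No probe set was tied to a member together with another gene.

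The heart RNA came from the left ventricular apex of 6 female littermates, 8 weeks old at tamoxifen injection, on a mixed C57B6 and B6129 background. The 3 PTIP KO mice had 1 floxed copy and 1 null copy of Paxip1, which encodes PTIP, and expressed Cre recombinase fused to a modified estrogen receptor under the alpha myosin heavy chain promoter. The 3 PTIP+ mice had 1 floxed and 1 wild-type copy, with no Cre transgene named in the labels. Both groups were given intraperitoneal tamoxifen at 20 mg/kg, and the labels place RNA collection 5 days after injection in one field and speak of treatment lasting 5 days in another. The driver acts in cardiomyocytes, so the other cells of the apex keep their floxed allele. The transgene and the null allele go with the PTIP KO group, so their effects and that of the induced deletion cannot be told apart.

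PTIP belongs to the complexes of the histone H3K4 methyltransferases Kmt2c and Kmt2d, which act at enhancers. The factors examined here are the proteins that occupy many cardiac enhancers: Gata4, Nkx2-5, the Mef2 proteins and their T-box partner Tbx5 bind DNA together and activate contractile, ion channel and natriuretic peptide genes. Hopx has a homeodomain that does not bind DNA and restrains serum response factor (Srf), a partner of the others.

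Values are log2 expression from Affymetrix arrays as the authors deposited them, processed by RMA, which makes the arrays' distributions alike and combines each probe set's probes into 1 value. One unit of difference is a doubling, RMA compresses differences of dim probe sets, and levels of different probe sets cannot be compared. Differences are PTIP KO minus PTIP+. Tests are limma's moderated test over all 45037 probe sets with Benjamini-Hochberg adjustment, and an adjusted p under 0.05 counts as passing. In tissue, fewer cells of a type and less RNA per cell cannot be told apart. The arrays correlated at 0.989 to 0.995, and PTIP+ mouse 1 stood apart on the first principal component. Cardiomyocyte markers were bright in every mouse, with a mean of 13.26 to 13.29 over 10 markers in PTIP KO mice and 13.27 to 13.29 in PTIP+ mice. Paxip1 was lower without overlap on all 4 of its probe sets and passed on 3. On 1423303_at Paxip1 read 6.34, 5.90 and 5.90 in PTIP KO mice, against 7.80, 7.71 and 8.10 in PTIP+ mice, a difference of -1.83 (limma adjusted p = 0.0240). Leaving out any 1 mouse brought the count of passing Paxip1 probe sets to 0.

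In PTIP KO hearts the brightest probe sets of the 10 genes differed from those of PTIP+ hearts by -0.34 to 0.43. None of the 29 probe sets passed, against 0.191% of all probe sets. For the brightest probe set of each gene, the 95% interval of the difference excluded a 2-fold change in either direction for the 9 genes brighter than the median probe set, and its outer bound ran from 1.25-fold for Mef2c to 1.73-fold for Nkx2-5. Hand1 was too dim for such a bound. Other probe sets did not all exclude it: the interval of Hopx 1451776_s_at reached -1.02, and that of the dim Gata6 1443081_at ran from -1.84 to 0.39. The share of all genes that exclude a 2-fold change was not counted, so such a bound is not shown to be particular to the members. In absolute size of difference Nkx2-5 exceeded 93.1% of all genes, Hopx 88.9%, Gata6 78.6% and Mef2a 77.6%. Tead1 exceeded 62.2%, Mef2d 60.2%, Hand2 48.8%, Mef2c 38.7%, Gata4 36.6% and Hand1 2.00%. Hopx was the member with the lowest adjusted p, and it was lower in every PTIP KO mouse than in every PTIP+ mouse on both of its probe sets. Nkx2-5 and Tead1 read higher in PTIP KO mice, and Mef2a and Gata6 lower, by differences that did not pass.

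Counted without adjustment, the members' shares lay above those of all features, and no test of that excess was made. An unadjusted limma p under 0.05 was found for 5 of the 29 member probe sets (17.2%), 2 higher and 3 lower, against 9.07% of all probe sets. The groups did not overlap on 11 of the 29 (37.9%), 4 higher and 7 lower, against 14.4% of all probe sets. By the brightest probe set, no member gene passed, against 0.286% of all genes. Hopx and Nkx2-5 were the 2 of 10 genes with an unadjusted p under 0.05, against 9.27% of all genes, and the groups did not overlap for 4 of 10, against 16.0% of all genes. Among genes brighter than the median probe set, as 9 of the 10 members were, the groups did not overlap for 19.2%. The count of 2 was 1 without PTIP KO 1, without PTIP+ mouse 1 or without PTIP+ mouse 2, and 0 within the 4 arrays whose description numbers begin alike (PTIP KO 3 and the 3 PTIP+ mice), where the arm of 1 PTIP KO mouse limits what can pass. The probe sets of 1 gene are not independent measurements. The median difference over the 10 genes was 0.04, against 0.02 over all genes, and differences of opposite sign offset each other in it. The median absolute difference was 0.156 over the 10 genes, against 0.119 over all genes.

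**Figure D1:**
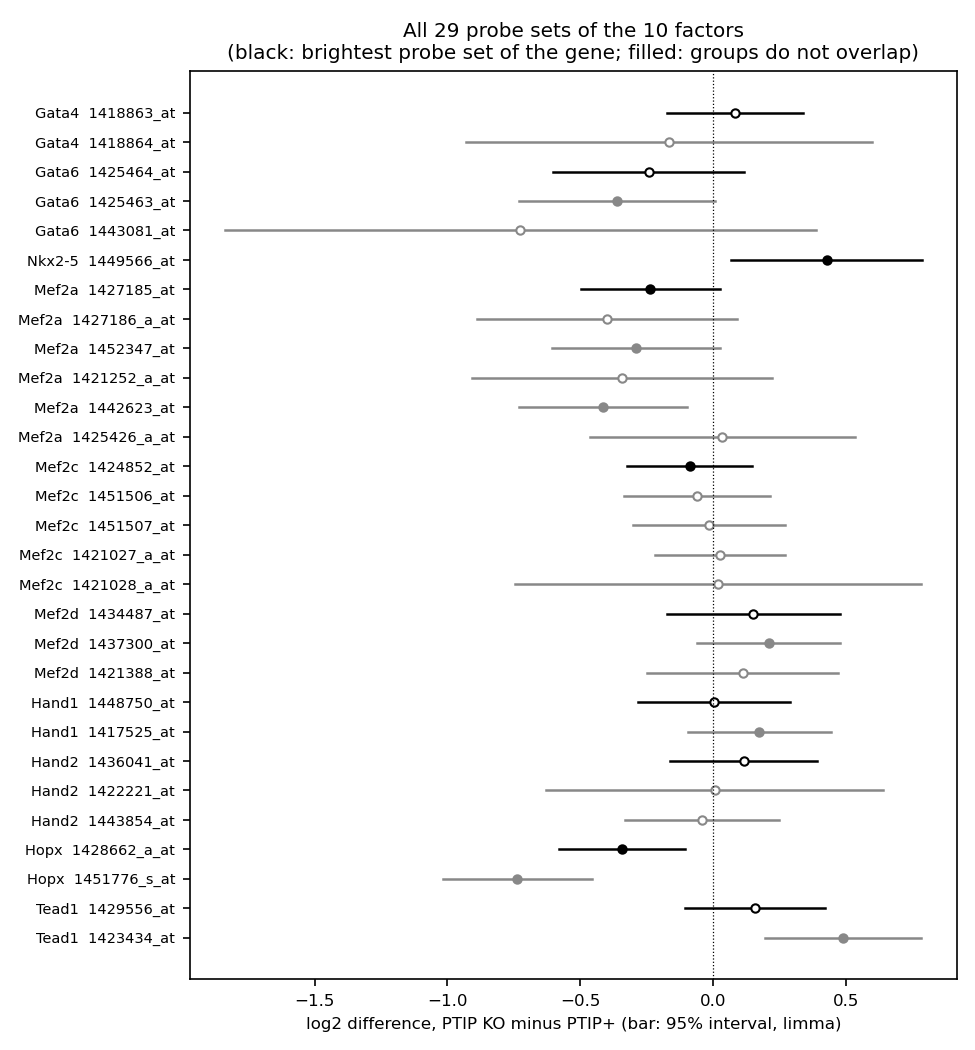
Log2 difference, PTIP KO minus PTIP+, for all 29 probe sets, with limma's 95% interval as a bar; black marks the brightest probe set of a gene and a filled point marks groups that do not overlap. Hopx 1451776_s_at lies lowest, at -0.74, and Tead1 1423434_at highest, at 0.49.

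Hopx, which modulates Srf-dependent transcription, had the clearest difference. Its probe set 1451776_s_at read 10.99, 10.96 and 11.03 in PTIP KO mice, against 11.60, 11.91 and 11.68 in PTIP+ mice. The groups lay apart by more than the whole spread within either one. The difference was -0.74 (SE 0.12, 95% interval -1.02 to -0.46), which puts PTIP KO mice at 60.0% of the PTIP+ level, and it did not pass over all probe sets (limma adjusted p = 0.0909). The brighter Hopx probe set 1428662_a_at read 11.82, 11.94 and 11.94 in PTIP KO mice, against 12.29, 12.21 and 12.23 in PTIP+ mice. Again no PTIP KO value reached a PTIP+ value. That difference was -0.34 (SE 0.10, limma adjusted p = 0.360), or 78.8% of the PTIP+ level. Averaged over both Hopx probe sets the difference was -0.54 (limma adjusted p = 0.0564, over genes). All 10 macrophage and leukocyte markers were also lower in PTIP KO mice, with a mean of 7.88 to 8.26 in PTIP KO mice and 8.35 to 8.47 in PTIP+ mice, and their part in the Hopx result was not tested.

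The differences on the Hopx probe sets were of unequal size. Their IDs carry different suffixes, _s_at for 1451776_s_at and _a_at for 1428662_a_at. Whether the probes of either match transcripts of other genes was checked only through the platform annotation. Within each array, 1451776_s_at minus 1428662_a_at was -0.83, -0.98 and -0.92 in PTIP KO mice, against -0.69, -0.30 and -0.56 in PTIP+ mice. The groups did not overlap on this Hopx quantity, which was chosen after its values were seen, and its two-sided exact permutation p was 0.1, the smallest that 3 against 3 mice allow. The call for 1451776_s_at depended on the fit: it passed with a variance trend (limma adjusted p = 0.0137), with array weights (limma adjusted p = 0.0473) and when only probe sets above 6 on at least 3 arrays were tested (limma adjusted p = 0.0478). With 1 mouse left out, its difference ran from -0.80 to -0.64 and its limma adjusted p from 0.106 to 0.316. Over all 17 alternatives the difference stayed in that range. Settings that change only the test return the same difference and say nothing about its direction. These are the variance trend, the robust prior, the dim filters, the replicate block and the fit without moderation. Within the 4 arrays whose description numbers begin alike, the Hopx difference was -0.70 on 1451776_s_at and -0.30 on 1428662_a_at.

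For Hopx the RefSeq promoter table (build GRCm38.p6) holds 2 transcription starts, whose upstream 250 bases are shown because Hopx had the lowest adjusted p and because the probe sets of the gene differed unequally. The window of Nkx2-5 is shown as that of the member with the largest positive difference on a brightest probe set. That of Hand2 is shown because it holds more matches than the other windows reported here. Capitals mark matches to motifs bound by these factors, searched on both strands: for Gata factors AGATAA or AGATAG or TGATAA or TGATAG, for Nkx2-5 TNAAGTG, for Tead factors CATTCC, for Hand factors CATCTG or CGTCTG, and the Mef2 site and the CArG box of Srf by their usual consensus. All are written 5′ to 3′ on the strand of the gene, and the last base is the one before the start.
Hopx, upstream start, chr5:77115124-77115373, minus strand: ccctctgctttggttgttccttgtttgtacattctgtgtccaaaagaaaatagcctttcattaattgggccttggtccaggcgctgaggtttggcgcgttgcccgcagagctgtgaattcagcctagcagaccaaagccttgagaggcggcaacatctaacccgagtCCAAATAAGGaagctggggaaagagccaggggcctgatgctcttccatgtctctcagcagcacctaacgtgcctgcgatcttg
Hopx, downstream start, chr5:77095268-77095517, minus strand: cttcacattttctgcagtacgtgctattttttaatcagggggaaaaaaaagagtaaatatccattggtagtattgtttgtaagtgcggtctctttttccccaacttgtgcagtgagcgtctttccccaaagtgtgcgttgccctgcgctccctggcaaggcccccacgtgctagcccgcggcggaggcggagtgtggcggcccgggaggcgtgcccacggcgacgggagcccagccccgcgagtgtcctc
Nkx2-5, chr17:26841566-26841815, minus strand: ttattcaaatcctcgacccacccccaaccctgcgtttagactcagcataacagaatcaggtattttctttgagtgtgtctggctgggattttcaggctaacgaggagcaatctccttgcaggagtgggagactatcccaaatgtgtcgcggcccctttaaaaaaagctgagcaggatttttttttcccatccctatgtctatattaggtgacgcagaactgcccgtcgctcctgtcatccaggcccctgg
Hand2, chr8:57320733-57320982, plus strand: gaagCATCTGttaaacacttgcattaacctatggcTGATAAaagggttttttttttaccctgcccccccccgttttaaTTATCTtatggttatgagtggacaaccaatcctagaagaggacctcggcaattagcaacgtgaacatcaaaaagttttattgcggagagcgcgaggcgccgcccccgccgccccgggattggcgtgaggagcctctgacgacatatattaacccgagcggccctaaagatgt

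The upstream Hopx window holds 1 CArG box, 83 to 74 bases before the start, and none of the other motifs. A CArG box is found in 1.47% of the 32841 RefSeq windows of 250 bases. The downstream Hopx window and the Nkx2-5 window hold no match. The Hand2 window holds 2 Gata matches, the motif of 26.5% of all windows, and 1 Hand match, the motif of 19.5%. No match overlaps another. Of the 9 windows reported here for 6 members, 4 hold a match. Besides those printed with one, they are 2 of the 3 Mef2c windows, with a Tead match in one (12.6% of all windows) and a Hand match in the other. The windows of Mef2a and Mef2d hold none. None of the 9 windows has an Nkx2-5 or a Mef2 match, which 10.1% and 2.92% of all windows have. Windows of Gata4, Gata6, Hand1 and Tead1 are not reported here. A match describes letters in this window and shows no binding, and which start each Hopx probe set reports was not determined.

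Gata4, which with Tbx5 and Nkx2-5 drives the cardiac programme and in adult mice is needed for the response to pressure overload, had nearly equal values in both groups. On 1418863_at it read 10.67, 10.86 and 10.80 in PTIP KO mice, against 10.78, 10.63 and 10.68 in PTIP+ mice. The groups overlapped, and the Gata4 difference was 0.08 (95% interval -0.17 to 0.34, limma adjusted p = 0.897). On this probe set the interval excludes a change of more than 1.26-fold either way. The dimmer Gata4 probe set 1418864_at varied more among PTIP+ mice, from 5.32 to 6.68. It differed by -0.17, with a wider 95% interval of -0.93 to 0.60.

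Gata6, a relative of Gata4 that shares targets with it, was lower on each of its 3 probe sets without passing on any. On 1425464_at Gata6 read 9.19, 9.67 and 9.53 in PTIP KO mice, against 9.82, 9.75 and 9.55 in PTIP+ mice. The groups overlapped, with PTIP KO 1 the lowest, and the difference was -0.24 (95% interval -0.60 to 0.12, limma adjusted p = 0.734). On 1425463_at the groups did not overlap, at 6.69, 6.68 and 6.83 in PTIP KO mice and 6.86, 7.40 and 7.02 in PTIP+ mice, and Gata6 differed by -0.36 (limma adjusted p = 0.561). The dim probe set 1443081_at spread widely in both groups and differed by -0.73. Without PTIP KO 1 the difference on 1425464_at was -0.11.

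Nkx2-5, the homeodomain factor that partners Gata4, has a single probe set, 1449566_at. It read 7.74, 7.42 and 7.35 in PTIP KO mice, against 6.88, 7.08 and 7.27 in PTIP+ mice. All PTIP KO values lay above all PTIP+ values, though the lowest PTIP KO mouse and the highest PTIP+ mouse were close. The Nkx2-5 difference was 0.43 (SE 0.15, 95% interval 0.07 to 0.79), or 1.35-fold, and did not pass (limma adjusted p = 0.459). It was 0.28 within the 4 arrays whose description numbers begin alike, and 0.31 to 0.53 when 1 mouse was left out. Of all 10 brightest probe sets, that of Nkx2-5 also spread most over the 6 mice, by 0.86 from lowest to highest. That range includes the group difference. Within groups Nkx2-5 spanned 0.39 in PTIP KO mice, where Gata6 spanned 0.48, and 0.39 in PTIP+ mice.

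**Figure D2:**
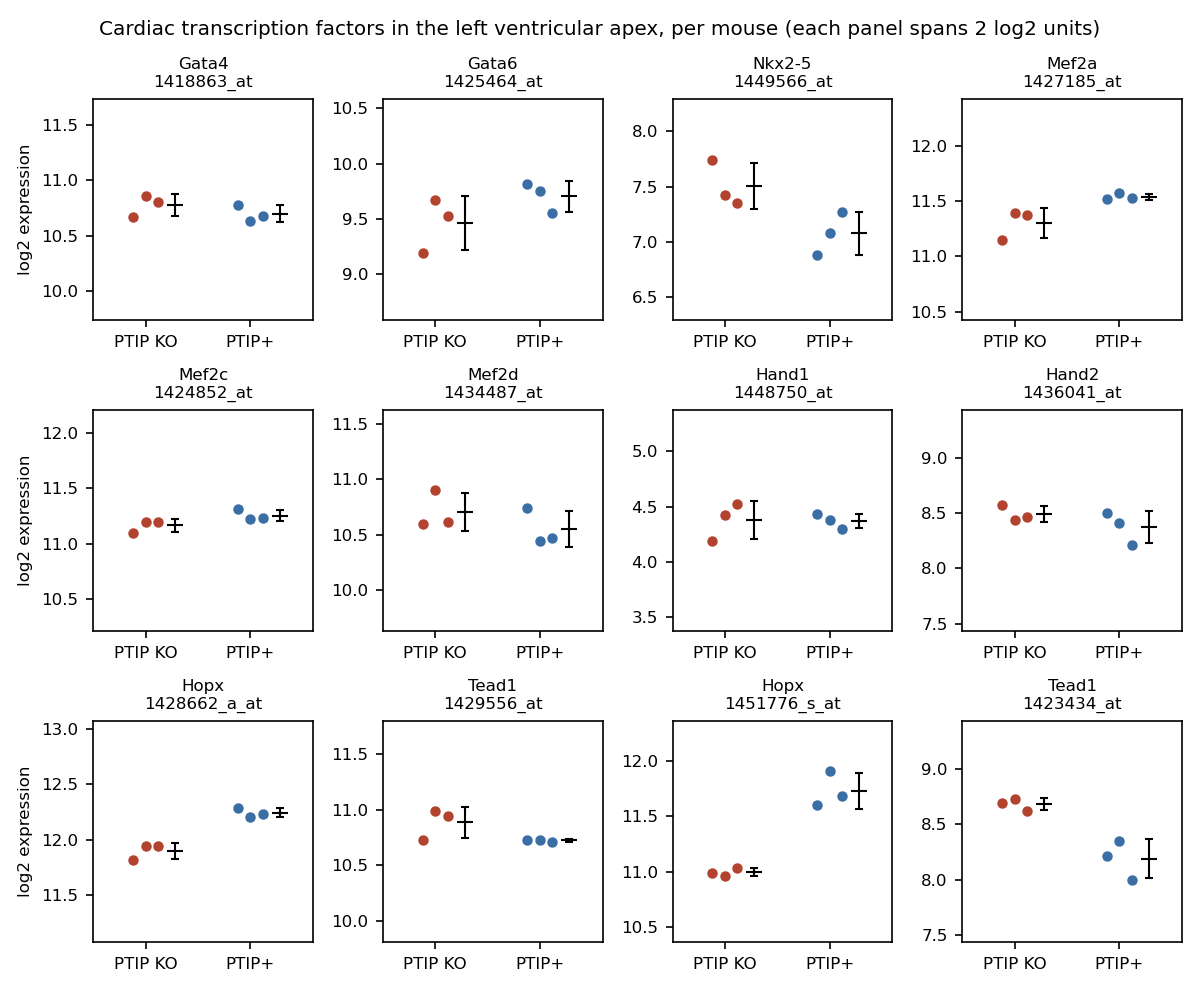
Log2 expression of the brightest probe set of each of the 10 genes, and of the second probe sets of Hopx and Tead1, with 1 point per mouse in the order 1 to 3 and the mean and SD beside the points (n = 3 per group). PTIP KO and PTIP+ mice separate on both Hopx panels, on Tead1 1423434_at and, more narrowly, for Nkx2-5, Mef2a and Mef2c. They overlap for Gata4, Gata6, Mef2d, Hand1, Hand2 and Tead1 1429556_at.

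The Mef2 genes, whose proteins control contractile and mitochondrial genes and are held in check by class II histone deacetylases, had differences of both signs. Mef2a, the main Mef2 protein of the adult mouse heart, was lower on 5 of its 6 probe sets. On 1427185_at Mef2a read 11.15, 11.39 and 11.37 in PTIP KO mice, against 11.52, 11.57 and 11.53 in PTIP+ mice. The groups did not overlap, the PTIP+ mice lay close together and PTIP KO 1 was lowest. The difference was -0.24 (95% interval -0.50 to 0.03, limma adjusted p = 0.608), and the other Mef2a probe sets differed by -0.41 to 0.04, and both ends of that range come from dim probe sets, 1442623_at and 1425426_a_at. The Mef2a groups also did not overlap on 1452347_at and on the dim 1442623_at, and the mean over all 6 probe sets differed by -0.27 (limma adjusted p = 0.474, over genes).

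Mef2c, which is required for heart formation in the mouse embryo, differed least of the family. On 1424852_at Mef2c read 11.10, 11.20 and 11.20 in PTIP KO mice, against 11.31, 11.22 and 11.23 in PTIP+ mice. The groups did not overlap but lay close, and the difference was -0.09 (95% interval -0.32 to 0.15, limma adjusted p = 0.872). The 5 Mef2c probe sets differed by -0.09 to 0.03.

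Mef2d, which carries stress-dependent remodelling signals in the mouse heart, was higher on all 3 of its probe sets by 0.11 to 0.21. On 1434487_at Mef2d read 10.60, 10.90 and 10.61 in PTIP KO mice, against 10.74, 10.44 and 10.47 in PTIP+ mice. These groups overlapped, and the difference was 0.15 (95% interval -0.17 to 0.48, limma adjusted p = 0.832). On 1437300_at the Mef2d values did not overlap, and the difference was 0.21 (limma adjusted p = 0.669).

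To ask whether relatives differed unequally, the log2 value of one was subtracted from that of the other in each mouse, and the groups were compared on the result for 5 pairs fixed for this purpose. Mef2a minus Mef2d was 0.55, 0.50 and 0.76 in PTIP KO mice, against 0.78, 1.13 and 1.06 in PTIP+ mice, a difference between groups of -0.39 without overlap. Gata4 minus Gata6 was 1.48, 1.19 and 1.27 in PTIP KO mice, against 0.96, 0.88 and 1.13 in PTIP+ mice, a difference of 0.32 without overlap. Mef2a minus Mef2c differed by -0.15, also without overlap. Each of these 3 pairs had a two-sided exact permutation p = 0.1, the smallest possible here, and 0.167 after adjustment over the 5 pairs. Mef2d minus Mef2c differed by 0.24 with overlapping groups (exact permutation p = 0.2, adjusted 0.250), and Hand1 minus Hand2 by -0.11 (exact permutation p = 0.7, also after adjustment). None passed, and no pair could have.

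**Figure D3:**
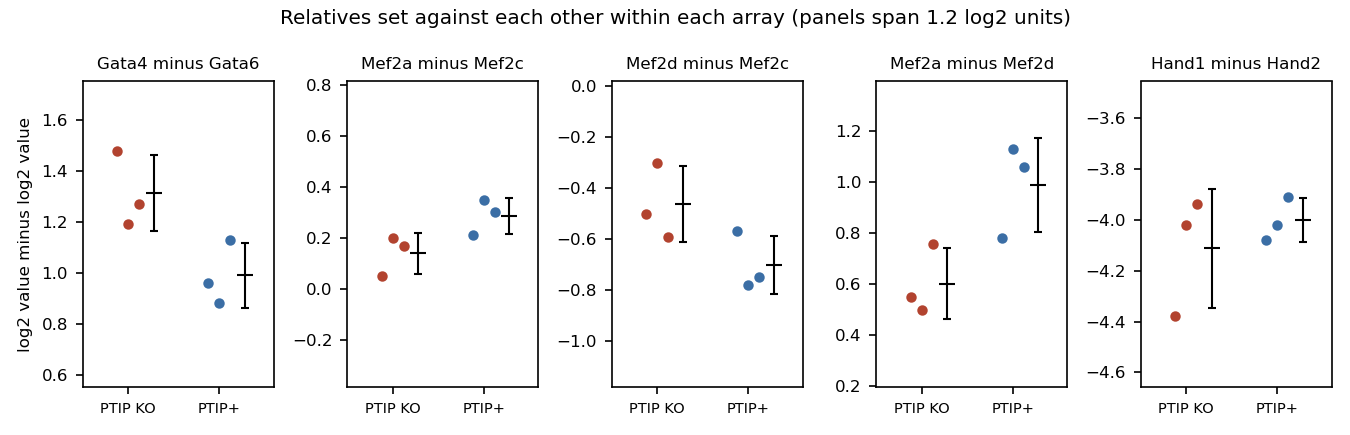
Log2 value of one gene minus that of its relative in the same array, brightest probe sets, with 1 point per mouse and the mean and SD beside the points (n = 3 per group). Gata4 minus Gata6 lies higher and Mef2a minus Mef2d lower in PTIP KO mice than in PTIP+ mice, while Hand1 minus Hand2 overlaps; the absolute heights reflect the probe sets and are not comparable between panels.

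Hand1 and Hand2 act in the formation of the ventricles, and in the mouse embryo Hand1 is found mainly on the left and Hand2 on the right. Hand1 was dim on both probe sets. On 1448750_at Hand1 read 4.19, 4.42 and 4.52 in PTIP KO mice, against 4.43, 4.38 and 4.30 in PTIP+ mice. These values lie within the range of Y-linked probe sets in these female mice (median 2.45, highest 5.50). At that signal its difference of 0.00 (95% interval -0.28 to 0.29) says little about the transcript. The other Hand1 probe set, 1417525_at, lay at 2.43 to 2.80 in all 6 mice.

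Hand2 was brighter, and its difference was small. On 1436041_at Hand2 read 8.57, 8.44 and 8.46 in PTIP KO mice, against 8.50, 8.41 and 8.21 in PTIP+ mice. The groups overlapped, with PTIP+ mouse 3 lowest, and the difference was 0.12 (95% interval -0.16 to 0.39, limma adjusted p = 0.854). The other Hand2 probe sets differed by 0.01 and -0.04.

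Tead1, which binds the MCAT element of muscle genes, was higher on both of its probe sets. On 1423434_at Tead1 read 8.69, 8.73 and 8.62 in PTIP KO mice, against 8.21, 8.35 and 8.00 in PTIP+ mice. The PTIP KO mice lay close together and above all PTIP+ mice, with a difference of 0.49 (SE 0.13, 95% interval 0.20 to 0.78, limma adjusted p = 0.280), or 1.40-fold. On the brighter 1429556_at Tead1 read 10.73, 10.99 and 10.94 in PTIP KO mice, against 10.73, 10.73 and 10.71 in PTIP+ mice. There PTIP KO 1 matched the PTIP+ mice, and the difference was 0.16 (limma adjusted p = 0.767). The gap between the Tead1 probe sets within an array differed by 0.33 between groups (exact permutation p = 0.1), a comparison chosen after the values were seen.

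Other genes of these families were mostly dim, and none differed with an unadjusted limma p under 0.05, against 9.27% of all genes. A count of none among 10 genes is near that share. Of 10 relatives (Gata1, Gata2, Gata3, Gata5, Mef2b, Nkx2-3, Nkx2-6, Tead2, Tead3 and Tead4), 2 were brighter than the median probe set, none passed, and the median difference was 0.05. The lowest adjusted p was that of Tead4, which read 4.07, 4.17 and 4.29 in PTIP KO mice, against 4.26, 4.70 and 4.44 in PTIP+ mice (difference -0.29, limma adjusted p = 0.624).

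Among 21 measured T-box and other cardiac factors, none passed on its brightest probe set. At an unadjusted limma p under 0.05, 1 was higher, Tbx5, and 1 lower, the Iroquois factor Irx3 (difference -0.27, limma adjusted p = 0.542), and these 2 of 21 are a share near the 9.27% of all genes. Tbx5, the partner of Gata4 and Nkx2-5, read 10.24, 10.26 and 10.15 in PTIP KO mice, against 9.82, 9.66 and 9.62 in PTIP+ mice, without overlap, and differed by 0.52 (limma adjusted p = 0.188). Its dimmer probe set 1425694_at differed by 0.89 (limma adjusted p = 0.156), and the mean of both Tbx5 probe sets rose by 0.70 (limma adjusted p = 0.0366, over genes). Hey2, a ventricular repressor, differed by 0.39 (limma adjusted p = 0.572). The median over the list was -0.01.

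Of the 39 cofactors and regulators of these factors, 21 were higher and 18 lower by their brightest probe sets. With any probe set counted, 1 passed, Cited4, a protein that binds the acetyltransferases p300 and CBP. It did so on its dimmer probe set only. On 1425400_a_at Cited4 read 4.50, 4.25 and 4.28 in PTIP KO mice, against 5.62, 5.87 and 5.96 in PTIP+ mice. It fell by 1.47 on the log2 scale (SE 0.14, limma adjusted p = 0.0240). Both Cited4 probe sets are dimmer than the median probe set. The PTIP KO values lie within the range of Y-linked probe sets in these female mice (median 2.45, highest 5.50), so the size of the Cited4 difference is uncertain. Its slightly brighter probe set 1438261_at differed by -1.29 (limma adjusted p = 0.173). The Cited4 call on 1425400_a_at held without PTIP+ mouse 1 (limma adjusted p = 0.0332) and was lost without any 1 of the other mice (limma adjusted p = 0.0758 to 0.124), with differences of -1.57 to -1.40. By brightest probe sets none of the 39 passed, and at an unadjusted p under 0.05, 5 were higher and 2 lower, against 9.27% of all genes.

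The lower pair were Cited4 and its relative Cited2, which differed by -0.50 (limma adjusted p = 0.246). The 5 higher were Hdac4 and Hdac5, which are class II deacetylases and repress Mef2 proteins, the muscle histone methyltransferase Smyd1, Srf, and Nfatc1, of which Hdac5, Srf and Nfatc1 were named after their values were seen. Hdac4 read 10.51, 10.52 and 9.93 in PTIP KO mice, against 9.55, 9.50 and 9.61 in PTIP+ mice, a difference of 0.77 (limma adjusted p = 0.219). Hdac5 differed by 0.38, Smyd1 by 0.46 and Srf by 0.38, each without overlap between groups (limma adjusted p between 0.375 and 0.467). The other class II deacetylases of the list, Hdac7 and Hdac9, differed by 0.02 and -0.02, and were also named after their values were seen. The median over the cofactors was 0.02.

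Among 41 measured cardiac genes often described as targets of these factors, differences ran both ways and none passed on its brightest probe set. At an unadjusted limma p under 0.05, 6 were higher and 5 lower of the 41, against 9.27% of all genes and 10.8% of genes brighter than the median probe set, and the median was -0.00. Nppb, the B-type natriuretic peptide gene activated by Gata4, read 9.90, 10.64 and 10.92 in PTIP KO mice, against 11.71, 12.12 and 11.69 in PTIP+ mice, a difference of -1.35 (limma adjusted p = 0.160). Ankrd1, a titin-linked nuclear cofactor, differed by -0.68 (limma adjusted p = 0.226) and by -1.56 on its other probe set (limma adjusted p = 0.0889). Acta1, the skeletal actin gene, differed by -0.88 (limma adjusted p = 0.290).

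The other lower targets at that level were the gap junction gene Gja1 (difference -0.29, limma adjusted p = 0.459) and Corin (difference -0.34, limma adjusted p = 0.489), both without overlap and both named after their values were seen. Nppa, the atrial peptide gene, differed by 0.54 (limma adjusted p = 0.458) and Ccn2, a secreted protein gene that Tead factors activate, by 0.52 (limma adjusted p = 0.404). Myh7 read 10.67, 10.64 and 10.65 in PTIP KO mice, against 10.31, 10.16 and 9.02 in PTIP+ mice, a difference of 0.82 (limma adjusted p = 0.494) in which PTIP+ mouse 3 was far below the other PTIP+ mice. Myh6, the adult cardiac myosin gene, differed by -0.06 (95% interval -0.30 to 0.17).

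**Figure D4:**
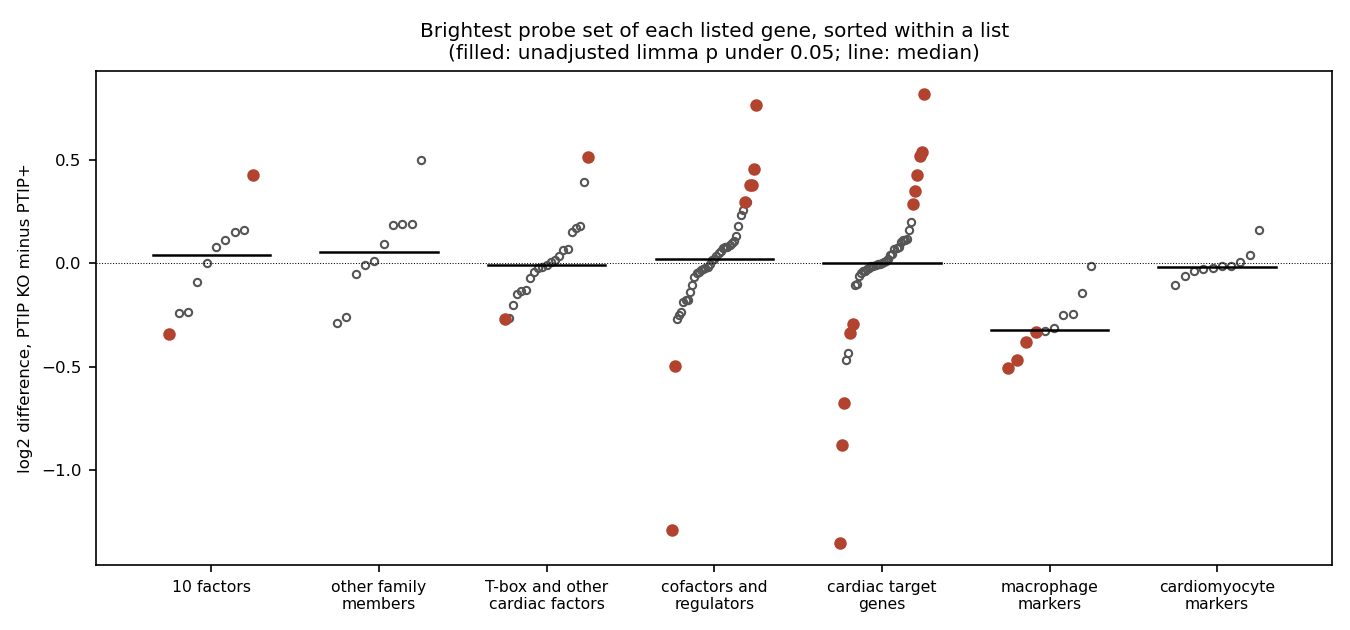
Log2 difference, PTIP KO minus PTIP+, on the brightest probe set of each measured gene of 7 lists, sorted within a list, with the list's median as a line; filled points have an unadjusted limma p under 0.05. The 10 factors span -0.34 to 0.43, while their cofactors reach from -1.29 to 0.77 and their targets from -1.35 to 0.82; all 10 macrophage markers lie below 0.

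Of the 9 genes of the methyltransferase complex around PTIP other than Paxip1, none had an unadjusted limma p under 0.05. Over all genes the share was 9.27%, and none of 9 is near it. The partner gene Pagr1a differed by 0.26 (limma adjusted p = 0.826). Among 9 lists of cell type markers, the macrophage and leukocyte list was the 1 whose mean did not overlap between groups. Of the 10 macrophage and leukocyte markers, 4 had an unadjusted limma p under 0.05. The share was 9.27% of all genes and 10.8% of genes brighter than the median probe set. The log2 of the summed level of these markers was 12.41 to 12.89 in PTIP KO mice and 12.93 to 13.07 in PTIP+ mice. None of the 10 markers passed. Their part in the values of Mef2a and Gata6 was not tested. Fibroblast markers had a mean of 10.82 to 10.95 in PTIP KO mice and 10.79 to 10.94 in PTIP+ mice, and endothelial markers 10.18 to 10.30 in PTIP KO mice and 10.06 to 10.31 in PTIP+ mice. Epicardial markers varied among mice of both groups, from 4.91 to 6.84 in PTIP KO mice and from 5.75 to 6.65 in PTIP+ mice. Atrial markers had a mean of 6.99 to 7.11 in PTIP KO mice and 6.89 to 7.32 in PTIP+ mice, with 2 of the 10 higher (Nppa and Stard10, each with an unadjusted p under 0.05) and 8 lower, at a median of -0.03. Stard10 was named after its values were seen.

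The genes whose profiles over the 6 mice lay nearest to the 2 members with the largest differences on their brightest probe sets were found by the root mean square difference of centred log2 values, among 11508 genes brighter than the median probe set. Nearest to Hopx were Cacna2d1 at 0.0279, an auxiliary calcium channel subunit gene, Pdp1 at 0.0349, a pyruvate dehydrogenase phosphatase gene, and Slc16a1 at 0.0357, a lactate transporter gene. The Hopx profile itself lay 0.178 from its own mean by the same measure. Cacna2d1 differed by -0.34, Pdp1 by -0.39 and Slc16a1 by -0.31, none passing. Nearest to Nkx2-5 were Dcxr at 0.0472, Naglu at 0.0485 and Fahd2a at 0.0505, against 0.269 for Nkx2-5 from its own mean. With 6 arrays and this many genes some profile lies near any other, so these are a description.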

How the data were processed

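RNA of 6 mouse hearts was measured on 1 array each, and per the labels the target was made with the NuGen Ovation system, which amplifies RNA. The authors deposited log2 values made with RMA, per the submitters' processing notes; the log base is a reading of their range, 1.36 to 14.3. Such normalization hides a shift in total RNA. With arrays, precision is limited by how many mice were used, and the median SE of a difference was 0.147. The limma p-values set a difference against the spread between these mice, moderated toward the spread over all probe sets.

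Of 45101 probe sets, 64 controls were left out. Names came from the platform annotation, with symbols updated by Entrez identifier from RefSeq (GRCm38.p6): 34945 probe sets had 1 gene, 932 several, and 9160 are unnamed here. The brightest probe set represents a gene. Groups were compared across all probe sets with limma 3.58.1 in R 4.3.3 (lmFit, eBayes, group as the only term). The fit was first checked on simulated data whose planted differences were larger than any member's. Single quantities were compared with exact permutation tests over mice.

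Named were all members, from each list the genes that passed and up to 4 with the smallest p, a few set genes, and nearest profiles; others are said to be chosen later. Some listed genes were not analysed here. The members and lists were chosen with earlier results of these data known. Alternatives covered the variance prior, array weights, dim filters, normalization, blocks, left-out mice and the summary of probe sets.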

Additional observations from a re-analysis of the deposited data

How the results depend on the processing

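Over 18 alternatives (16 for Hand1), every member's brightest probe set kept its side of the threshold, with none passing. Direction was kept for 8 of the 10. Settings that change only the test, such as the variance trend or the dim filters, leave a difference as it was and cannot turn it. Gata4 turned to -0.0419 with the mean of its probe sets. Hand1, near 0, ran from -0.0661 to 0.0950 with a mouse left out and was below 0 without PTIP KO 2, PTIP KO 3 or PTIP+ mouse 3. Hand1 minus Hand2 turned to 0.0578 within the 4 arrays whose description numbers begin alike and to 0.0624 with the mean of probe sets, and ran from -0.196 to 0.020 with a mouse left out, above 0 without PTIP KO 1. The count of member probe sets passing was 1 (Hopx 1451776_s_at) with a variance trend, with array weights, with the filter at 6 and at an adjusted p under 0.1, and 0 whichever mouse was left out. Member genes with an unadjusted p under 0.05 numbered 3 with a variance trend (Mef2a added), 1 with array weights or the replicate block, 0 with the description number as a term or within the 4 arrays (both rest on 1 PTIP KO mouse), 4 with the mean of probe sets, and 1 to 2 with a mouse left out. Listed genes passing numbered 2 with array weights (Cited4, Paxip1), 4 with the mean of probe sets (Tbx5, Cited4, Ankrd1, Paxip1), 0 to 1 with a mouse left out (Cited4 without PTIP+ mouse 1), and 2 when any probe set counted, an alternative chosen after seeing the data. Paxip1 probe sets passing numbered 0 with the replicate block, with the description number as a term, within the 4 arrays, without moderation and with any mouse left out, where fewer arrays or degrees of freedom remain; the mean of its probe sets gave 1 of 1. Other causes were not tested. Deviations of same-numbered mice correlated at -0.15, -0.08 and -0.01. Mice of different numbers were not compared in this way, so whether the numbers pair the mice was not settled. Hand1 is limited by its dim signal.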
